A study of Mus musculus with 12 samples.

Results

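The genes described here encode the subunits of the 26S proteasome, the protease complex that degrades ubiquitin-tagged proteins in the cytosol and nucleus. They were chosen by name: gene symbols made of Psma, Psmb, Psmc or Psmd and a number, without the immunoproteasome genes Psmb8, Psmb9 and Psmb10 and without genes below 1 CPM (a level scaled to the total of its library) in all 12 libraries. Of 22276 gene symbols in the deposited files 39 matched the pattern, 3 were left out as immunoproteasome genes, none was below the minimum, and 36 remained. The 20S core, formed by the Psma and Psmb proteins, accounted for 16 of them, and the 19S cap, formed by the Psmc and Psmd proteins and their helpers, for 20. The study asked how chronic glucocorticoid excess acts on muscle, liver and fat, and what the glucocorticoid receptor of skeletal muscle contributes. RNA-seq libraries were made from gastrocnemius muscle, liver and gonadal WAT (white adipose tissue) of male C57BL/6J mice. GRfl/fl mice (GRf/f in the labels) had the glucocorticoid receptor gene, Nr3c1, flanked by loxP sites and no Cre, and GR-mKO mice (GRmKO in the labels) had the same floxed alleles with a Cre transgene under the skeletal actin (Acta1) promoter, which acts in muscle fibers, so that other cells of the muscle kept the receptor. From 8 weeks of age both genotypes drank water with 1% ethanol as vehicle, or the same with corticosterone (CORT) at 100 µg/mL, for 4 weeks, and both arms of every comparison therefore received ethanol. Each of the 12 combinations of tissue, genotype and treatment was 1 library made from a pool of RNA of 3 mice. No group had a replicate, so no SD and no p-value is given, and the spread between mice and between pools is unknown.

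The 20S core is a barrel of stacked rings. The outer rings of Psma proteins gate the entry, and the inner rings of Psmb proteins hold the proteolytic sites, with Psmb5 carrying the chymotrypsin-like, Psmb6 the caspase-like and Psmb7 the trypsin-like activity. The 19S cap receives the substrate: the Psmc proteins form a ring of ATPases that unfolds it, Psmd4 binds ubiquitin chains, Psmd14 removes them, Psmd1 and Psmd2 are the large scaffold subunits, and Psmd3, Psmd6, Psmd7, Psmd8, Psmd11, Psmd12 and Psmd13 belong to the lid. Psmd5, Psmd9 and Psmd10 are chaperones that help to assemble the ATPase ring and are not part of the finished particle. Psma8 is known as a testis form of an outer-ring subunit and Psmb11 as a thymus form of a catalytic subunit. In muscle wasting caused by glucocorticoids, proteasomal degradation downstream of the ubiquitin ligases Fbxo32 (atrogin-1) and Trim63 (MuRF1) is a well-known route of protein loss, and transcription factor Nfe2l1 is known to drive the subunit genes together through antioxidant-type elements when proteasome activity is short.

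Promoter sequences from RefSeq (mouse build GRCm38.p6, 250 bases before to 50 bases after the annotated start) were found for 29 of the 36 genes, with 31 promoters in all, and not for Psma8, Psmb1, Psmb2, Psmb7, Psmc3, Psmd3 and Psmd7. The letters TGACNNNGC, an antioxidant-type element, stood on either strand in the promoters of 5 of the 29 genes (Psmb5, Psmb6, Psmc6, Psmd9 and Psmd12), which is 16.1% of the 31 promoters against 12.4% of all 32851 promoters of the table. CCAAT, on either strand, stood in 12 of the 31 promoters (38.7%, against 37.4% of all), with 7 of 13 in the 20S core and 5 of 18 in the 19S cap. The cyclic AMP response element TGACGTCA was in none of the 31 (1.79% of all), and the palindromic glucocorticoid response motif, with up to 2 mismatches in its 11 fixed bases, was in 1, that of Psmd4 (3.23%, against 6.77% of all). The promoters had a median GC content of 56.7% and a median of 20 CpG sites, against 52.7% and 7 over all promoters. These are matches of letters in a short window and not binding sites. Of these promoters 4 are shown, up to the last base before the start and 5′ to 3′ on the strand of the gene. The catalytic genes Psmb5 (chr14:54617996-54618245, minus strand) and Psmb6 (chr11:70525107-70525356, plus strand) are shown with the antioxidant-type match in capitals, which begins 47 and 9 bases before the start. Psma3 (chr12:70974373-70974622, plus strand) and Psmd4 (chr3:95042615-95042864, minus strand), whose values moved most with CORT in GRfl/fl gastrocnemius, are shown with CCAAT or its reverse complement in capitals, 139 and 95 bases before the start.
Psmb5: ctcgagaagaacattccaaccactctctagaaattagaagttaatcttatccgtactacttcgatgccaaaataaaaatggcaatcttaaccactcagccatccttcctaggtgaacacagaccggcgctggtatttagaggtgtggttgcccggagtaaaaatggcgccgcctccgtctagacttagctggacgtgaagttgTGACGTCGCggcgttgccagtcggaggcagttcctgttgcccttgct
Psmb6: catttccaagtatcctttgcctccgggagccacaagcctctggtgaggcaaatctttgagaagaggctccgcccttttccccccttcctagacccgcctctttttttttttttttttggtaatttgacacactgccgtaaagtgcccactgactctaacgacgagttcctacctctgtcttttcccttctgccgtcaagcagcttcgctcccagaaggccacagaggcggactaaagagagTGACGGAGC
Psma3: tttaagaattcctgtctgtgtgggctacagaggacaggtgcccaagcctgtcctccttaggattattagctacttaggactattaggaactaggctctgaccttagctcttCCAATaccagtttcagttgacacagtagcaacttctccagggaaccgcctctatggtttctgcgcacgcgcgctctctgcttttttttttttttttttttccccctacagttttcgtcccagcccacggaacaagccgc
Psmd4: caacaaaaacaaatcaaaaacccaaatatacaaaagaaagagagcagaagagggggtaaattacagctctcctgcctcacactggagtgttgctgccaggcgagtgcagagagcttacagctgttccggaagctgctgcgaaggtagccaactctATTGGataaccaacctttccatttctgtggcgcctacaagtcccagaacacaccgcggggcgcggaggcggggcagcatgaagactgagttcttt

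The libraries held 19394572 to 20940660 expected counts (estimated read counts), at which depth 3 counts, taken as the floor, correspond to 0.143 to 0.155 CPM. Intervals in brackets are 95% binomial intervals (Wilson for a level, Clopper-Pearson for a ratio); these and the floor cover counting error only. Changes are log2 ratios of CPM, each raised by 0.5 CPM, and a feature was counted as higher or lower past the same fold in either direction, at least 25% higher or 20% lower, which is 0.32 on the log2 scale. Beside the counts of each comparison stands the share of all features, those above 0 in all 4 libraries of a tissue, that passed the same rule. Genes called by NOISeq, the method of the study for libraries without replicates, are those at a probability of at least 0.9, which measures distance from simulated counting noise only. Muscle, hepatocyte and adipocyte markers were highest in their own tissues, and epididymis markers were at or below 1.10 CPM in sum in all 12 libraries. Leukocyte markers (5 genes) summed to 352 CPM in the gastrocnemius of vehicle-treated GR-mKO mice against 91.9 to 130.4 CPM in the other 3 libraries of that tissue. In tissue RNA, fewer cells of a type and less RNA per cell cannot be told apart. Nr3c1, the targeted gene, stood at 113 CPM in GRfl/fl vehicle, 90.4 CPM in GRfl/fl CORT, 46.4 CPM in GR-mKO vehicle and 35.5 CPM in GR-mKO CORT gastrocnemius, and was thus lower in both GR-mKO libraries (log2 changes of -1.27 under vehicle and -1.34 under CORT). In liver and gonadal WAT it differed between genotypes by -0.29 to 0.13 on the log2 scale.

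All proteasome genes except Psma8 and Psmb11 were well above the floor in every library. In the GRfl/fl vehicle library of gastrocnemius, levels per kilobase of transcript ran from 205 CPM per kb for the lid subunit Psmd8, 120.7 for the catalytic Psmb6 and 94.9 for Psmb3 down to 4.72 for the chaperone Psmd5 and 3.76 for the chaperone Psmd10. Psmb6, Psmb3 and Psmd8 were also the 3 highest per kb in liver and in gonadal WAT, and the chaperone Psmd10 was the lowest in each tissue after Psma8 and Psmb11. Psmb11 was at 0.155 to 0.531 CPM in gastrocnemius, at 0.540 to 1.04 CPM in liver and at 1.16 to 1.79 CPM in gonadal WAT. Psma8 was listed at 0 in 2 of the 4 gastrocnemius libraries, so that 35 genes could be compared in this tissue and all 36 in liver and gonadal WAT.

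Core and cap were set differently in the 3 tissues. In GRfl/fl vehicle libraries, the 20S core genes other than Psma8 and Psmb11 were higher in gonadal WAT than in gastrocnemius in 14 of 14 cases, with a median CPM ratio of 1.48, and in liver in 8 of 14, with a median ratio of 1.05. Of the 10095 features above 0 in all 12 libraries and listed with the same transcript in each tissue, 75.7% were higher in gonadal WAT and 33.5% in liver than in gastrocnemius. The 19S cap genes were lower in liver than in gastrocnemius in 16 of 20 cases (66.5% of those features), with a median ratio of 0.678, and for 11 of the 20 all 4 liver libraries lay below all 4 gastrocnemius libraries (45.9% of those features). Psmd7, the lid partner of the deubiquitinase Psmd14, stood at 135 CPM in gastrocnemius, 46.7 CPM in liver and 99.6 CPM in gonadal WAT of these mice. Psmd9 went the other way, at 14.9, 31.7 and 20.03 CPM. Between gonadal WAT and gastrocnemius the 19S cap was even, with a median ratio of 0.988 and 10 of 20 genes higher in WAT.

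The first question was what loss of the receptor in muscle fibers did to the proteasome genes of the muscle itself. The 20S core was higher in GR-mKO than in GRfl/fl gastrocnemius, under vehicle and again under CORT. Of the 15 core genes compared, 14 were above their GRfl/fl level under both treatments (37.1% of all features), and 7 of these (Psma1, Psma2, Psma3, Psma4, Psma5, Psmb1 and Psmb2) were at least 25% higher under both (14.1% of all features). The comparison under vehicle and that under CORT share no library. The 19S cap was less uniform: 13 of 20 genes were above their GRfl/fl level under both treatments, and 2 of the 20, the chaperones Psmd9 and Psmd10, were at least 25% higher under both, a share near that of all features.

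**Figure D1:**
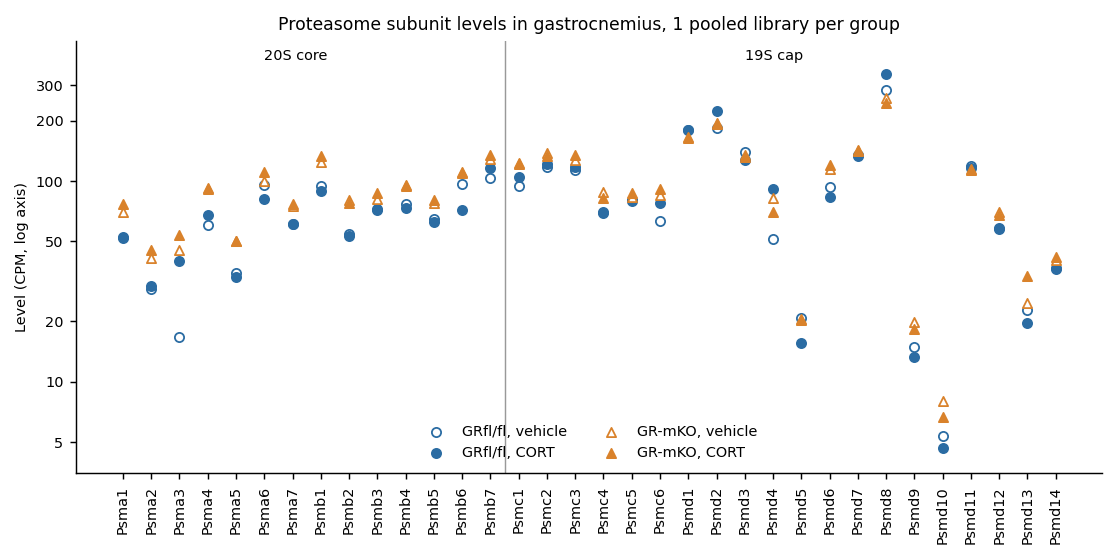
Level of each proteasome subunit gene in the 4 gastrocnemius libraries, in CPM on a log axis, with 1 point per pooled library, 20S core genes on the left and 19S cap genes on the right. Among the core genes the GR-mKO points lie above the GRfl/fl points for Psma1 (70.3 and 76.7 against 52.0 and 52.9 CPM) and Psmb2, and the GRfl/fl vehicle point of Psma3 lies far below its other 3 points. Psma8 and Psmb11 are not drawn.

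Under vehicle the median log2 difference between GR-mKO and GRfl/fl was 0.27 over the 35 genes (a fold of 1.202), 0.31 over the 20S core and 0.15 over the 19S cap, beside 0.07 over all 13543 features tested. With TMM factors the medians were 0.19 over the 35 genes, 0.23 over the core, 0.07 over the cap and -0.002 over all features. At least 25% higher were 13 of the 35 genes (29.1% of all features) and lower none (19.6% of all features), with 7 of 15 core and 6 of 20 cap genes among the higher ones. Under TMM scaling the count of higher genes was 9 and under median-of-ratios scaling 11, with none lower under either. Past 1.5-fold in either direction were Psma3, Psma4 and Psmd4, that is 3 genes (24.0% of all features), and NOISeq called Psma3 alone, 1 gene (3.35% of all features). Among features with a mean of at least 20 CPM the shares of all features were 21.3% higher and 20.1% lower, a limit chosen after the values had been seen.

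Under CORT the median was 0.27 over the 35 genes (a fold of 1.21), 0.43 over the core and 0.20 over the cap, beside 0.02 over all features. At least 25% higher were 17 of the 35 genes (28.0% of all features) and lower 3 (24.7% of all features). The core held 12 of the 17 higher genes and the cap 5, and the lower genes were Psmd8, Psmd4 and Psmb11, the last of them near the floor. Past 1.5-fold were 3 genes (27.7% of all features), namely Psmd13, Psmb6 and Psmb11, and NOISeq called 0 of the 35 (3.78% of all features). The core was higher by more than the cap, with differences of the 2 medians of 0.16 under vehicle and 0.22 under CORT, a quantity that scaling cannot change. Of the 15 core genes, 13 under vehicle and 14 under CORT lay above the median of the cap.

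Several core genes had nearly the same level within each genotype. The outer-ring gene Psma1 stood at 52.0 CPM (48.9 to 55.3) in GRfl/fl vehicle, 52.9 (49.8 to 56.2) in GRfl/fl CORT, 70.3 (66.7 to 74.1) in GR-mKO vehicle and 76.7 (73.0 to 80.6) in GR-mKO CORT gastrocnemius. The inner-ring gene Psmb2 stood at 54.2, 53.0, 80.9 and 77.7 CPM in the same order. Both GR-mKO libraries of these genes lay above both GRfl/fl libraries, and the CORT and vehicle libraries within a genotype were close. For Psmb2 the log2 difference between genotypes was 0.57 (0.47 to 0.69) under vehicle and 0.55 (0.44 to 0.67) under CORT. Psma5, another outer-ring gene, read 34.7, 33.3, 50.3 and 50.05 CPM. Psma4 read 60.3, 67.9, 92.6 and 91.4 CPM, and its GR-mKO libraries were again the higher ones.

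The 3 catalytic genes were also higher in GR-mKO. The chymotrypsin-like subunit Psmb5 read 64.8 CPM (61.3 to 68.4), 62.2 (58.8 to 65.8), 77.8 (74.1 to 81.8) and 80.6 (76.8 to 84.6) in GRfl/fl vehicle, GRfl/fl CORT, GR-mKO vehicle and GR-mKO CORT, a log2 difference between genotypes of 0.26 (0.16 to 0.37) under vehicle and 0.37 (0.27 to 0.48) under CORT. The trypsin-like subunit Psmb7 read 103, 116, 128 and 135 CPM, with differences of 0.31 and 0.22. The caspase-like subunit Psmb6 read 96.4, 71.7, 109.6 and 111 CPM, with differences of 0.19 and 0.62. For all 3 genes both GR-mKO libraries were above both GRfl/fl libraries. Of all features 37.1% were above their GRfl/fl level under both treatments, a looser rule. The promoter windows of Psmb5 and Psmb6 hold the antioxidant-type letters, those of Psma1 to Psma5 do not, and none was found for Psmb7. A part of these letters in the levels was not tested.

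In the cap, the ATPase genes were all above their GRfl/fl level in GR-mKO gastrocnemius under both treatments, with log2 differences of 0.05 to 0.42 under vehicle and 0.12 to 0.24 under CORT. Psmc6, with the largest difference under vehicle, read 63.2 CPM in GRfl/fl vehicle, 77.8 in GRfl/fl CORT, 84.9 in GR-mKO vehicle and 91.5 in GR-mKO CORT. The scaffold subunits and parts of the lid did not share this direction. Psmd1, a scaffold subunit, read 179.6 and 180.0 CPM in the GRfl/fl libraries and 163 and 166 CPM in the GR-mKO libraries. Psmd8, the lid gene highest per kb, read 285, 341, 259 and 245 CPM, and was lower in both GR-mKO libraries (log2 differences of -0.14 and -0.48).

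**Figure D2:**
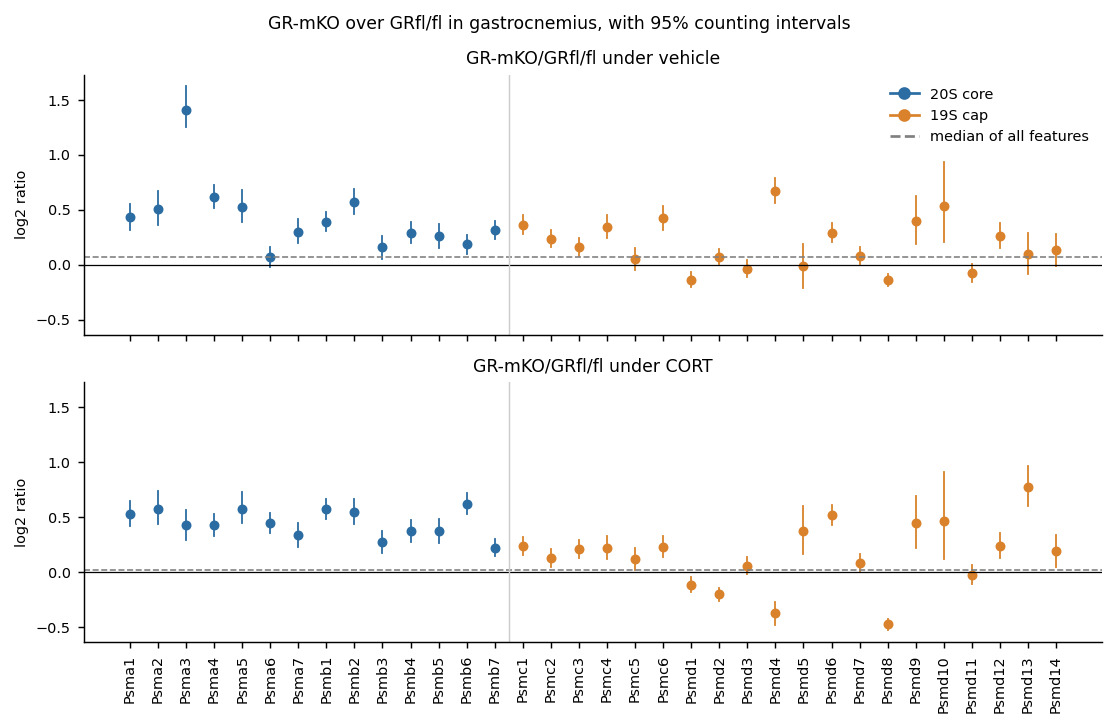
Log2 ratio of GR-mKO over GRfl/fl in gastrocnemius for each proteasome gene, under vehicle above and under CORT below, with 95% counting intervals, the 20S core and the 19S cap in different colors and a dashed line at the median of all features (0.07 and 0.02). All core genes drawn lie above the line, the lowest under vehicle only just, while cap genes spread to both sides, down to -0.48 for Psmd8 under CORT. Psma8 and Psmb11 are not drawn.

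The counting interval lay above 0 for 13 of 15 core and 12 of 20 cap genes under vehicle (32.2% of all features), and for 14 and 14 under CORT (29.5%), and below 0 for 2 cap genes under vehicle (23.5%) and 4 under CORT (27.3%). These shares of all features include many at low counts, where intervals are wide. The libraries differed in other ways along the same contrast. The 5 skeletal muscle markers summed to 103450 CPM in GRfl/fl vehicle, 86782 in GRfl/fl CORT, 69285 in GR-mKO vehicle and 87159 in GR-mKO CORT. Under vehicle the fiber genes Myh4 (log2 difference of -1.22), Ckm (-0.49) and Acta1 (-0.40) were lower in GR-mKO, while Tnnt3 read 0.10 and Mb 0.08. The 6 hepatocyte markers summed to 6.02, 9.50, 81.9 and 306 CPM, and leukocyte markers to 91.9, 96.6, 352 and 130.4 CPM in the same order, both higher in the GR-mKO libraries, and the part of these 3 marker lists in the result was not tested.

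The next question was how CORT acted on these genes in muscle, where it is known to cause atrophy. In GRfl/fl gastrocnemius the proteasome genes did not move together: 16 of 35 were above (5704 of all 13543 features) and 19 below their vehicle level (7839 features). The median log2 change was -0.01 over the 35 genes, the core and the cap alike, beside -0.08 over all features. At least 25% higher were 2 genes, Psma3 and Psmd4 (17.8% of all features), and lower were 2, the catalytic Psmb6 and the chaperone Psmd5 (28.7% of all features). Past 1.5-fold were Psma3 and Psmd4, 2 genes (22.6% of all features), and NOISeq called Psma3 (3.46% of all features). With TMM factors 5 genes counted as higher and 1 as lower, with median-of-ratios factors 5 and 0, and the median over the 35 genes was then 0.08 and 0.10.

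In GR-mKO gastrocnemius the median change with CORT was 0.02 over the 35 genes, 0.05 over the core and -0.00 over the cap (0.15 with TMM factors), beside -0.10 over all features. Higher by 25% was 1 gene, Psmd13 (10.1% of all features), and lower 1, Psmb11 near the floor (27.9% of all features), while 0 genes passed 1.5-fold (18.9% of all features) and NOISeq called 0 (2.0% of all features). TMM factors moved the median of all features from -0.10 to 0.04 in this comparison and that of the proteasome genes from 0.02 to 0.18. Scaling moves both by nearly the same amount, so it could not change their order. The changes in the 2 genotypes, which rest on different libraries, had the same sign for 18 of 35 genes (51.4%, against 58.4% of all features), and their Pearson correlation across the 35 genes was 0.001, against 0.31 across all features. Genes are not independent replicates, and these shares are a description.

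**Figure D3:**
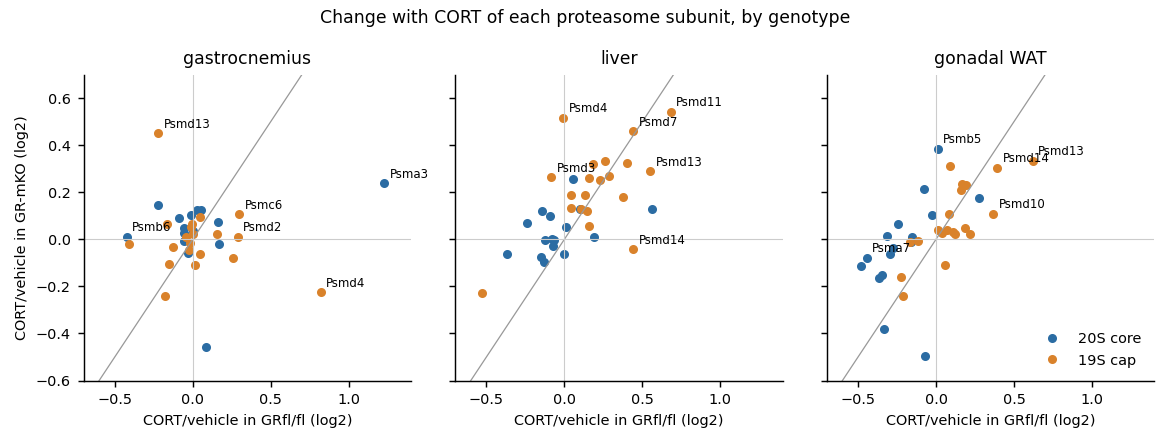
Log2 change with CORT of each proteasome gene in GRfl/fl (horizontal) and GR-mKO (vertical), in gastrocnemius, liver and gonadal WAT, with 1 point per gene and a line where both changes are equal. In gastrocnemius Psma3 and Psmd4 stand apart on the right (1.23 and 0.82 in GRfl/fl), and in liver the 19S cap genes gather above 0 on both axes.

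Psma3, an outer-ring subunit of the core, gave the largest change. It read 16.8 CPM (15.1 to 18.7) in GRfl/fl vehicle, 39.9 (37.2 to 42.9) in GRfl/fl CORT, 45.5 (42.7 to 48.6) in GR-mKO vehicle and 53.8 (50.7 to 57.1) in GR-mKO CORT. The GRfl/fl vehicle library was the low one, and the other 3 ranged from 39.9 to 53.8 CPM. With CORT the log2 change was 1.23 (1.06 to 1.44) in GRfl/fl mice, against 0.24 (0.11 to 0.37) in GR-mKO mice. Rps27a, a gene that encodes ubiquitin fused to a ribosomal protein, read 2.64, 53.9, 99.6 and 83.6 CPM in the same libraries, with the low value in the same one, and the part of that library in the Psma3 value was not tested. Without Psma3 and Psmd4 the median difference between genotypes under vehicle was 0.26 over the remaining genes.

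Psmd4, the ubiquitin receptor of the cap, moved in opposite directions in the genotypes. It read 51.2 CPM (48.2 to 54.5) in GRfl/fl vehicle, 90.8 (86.7 to 95.1) in GRfl/fl CORT, 81.9 (78.0 to 86.0) in GR-mKO vehicle and 70.0 (66.4 to 73.7) in GR-mKO CORT. Its log2 change was 0.82 (0.71 to 0.94) in GRfl/fl mice and, with the opposite sign, -0.23 (-0.33 to -0.12) in GR-mKO mice. The annotation (GENCODE M21, GRCm38) lists 3 protein-coding transcripts for Psma3 and 4 for Psmd4, of which the deposited entries name 1 each. Whether the values were summed over transcripts was not settled, and shifts of reads among transcripts were not tested. The lid subunit Psmd13 showed the reverse of Psmd4, at 22.9, 19.6, 24.6 and 33.8 CPM, a change of -0.22 (-0.42 to -0.02) in GRfl/fl and of 0.45 (0.29 to 0.63) in GR-mKO. The caspase-like Psmb6 was lower with CORT in GRfl/fl (-0.42, -0.53 to -0.33) and level in GR-mKO (0.01, -0.07 to 0.10). Psmc6 (0.30) and the scaffold subunit Psmd2, at 183, 224, 193 and 194 CPM (0.29), were the next highest in GRfl/fl, and the chaperone Psmd5, at 20.7, 15.5, 20.6 and 20.3 CPM, was among the lowest (-0.41). Over all 35 genes the change in GRfl/fl exceeded that in GR-mKO for 14 and fell short of it for 21, with a median difference of -0.05, beside 0.05 over all features.

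In liver, CORT went with higher cap and not higher core transcripts, in both genotypes. In GRfl/fl liver 17 of 20 cap genes were above (6338 of all 12485 features tested) and 11 of 16 core genes below their vehicle level (6147 features). The medians were 0.17 for the cap, -0.08 for the core, 0.08 for all 36 genes and 0.00 for all features. At least 25% higher were 7 of the 36 genes (25.4% of all features) and lower 2 (24.6% of all features), and 6 of the 7 belonged to the cap. Past 1.5-fold was 1 gene, Psmd11 (27.2% of all features), and NOISeq called 0 (4.93% of all features). In GR-mKO liver 18 of 20 cap genes were above their vehicle level (6904 of all features), with medians of 0.26 for the cap and 0.00 for the core. The median was 0.13 for all 36 genes and 0.05 for all features. With TMM factors the medians were 0.19 for the cap, -0.05 for the core, 0.06 for the 36 genes and -0.01 for all features. Higher by 25% were 5 genes, all of the cap (22.4% of all features), and lower 0 (17.1% of all features), with 0 past 1.5-fold (17.7% of all features) and 0 called by NOISeq (2.21% of all features). The core lay below the cap by the same amount in both genotypes, with differences of the medians of -0.25 and -0.25, and 14 and 15 of the 16 core genes were below the median of the cap. Over all 36 genes the shares past a fold were at or below those of all features. For the cap alone the shares higher by 25% were above those of all features. They were 6 of 20 genes in GRfl/fl (25.4% of all features) and 5 of 20 in GR-mKO (22.4%). The cap genes mostly shared a direction, with changes that were mostly small.

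The lid subunit Psmd11 carried the largest liver change. It read 72.9 CPM (69.4 to 76.7) in GRfl/fl vehicle, 117 (113 to 122) in GRfl/fl CORT, 67.5 (64.0 to 71.1) in GR-mKO vehicle and 98.4 (94.2 to 103) in GR-mKO CORT liver, log2 changes of 0.68 (0.59 to 0.78) and 0.54 (0.45 to 0.64). Psmd7, the lid subunit that pairs with Psmd14, read 46.7, 63.7, 44.4 and 61.2 CPM, with changes of 0.44 and 0.46. For both genes the CORT libraries were above both vehicle libraries. The ATPase gene Psmc2 read 67.2, 88.8, 66.4 and 83.3 CPM, with changes of 0.40 and 0.32. Psmd13 read 19.05, 28.2, 16.8 and 20.7 CPM (0.55 and 0.29). Psmd9, a chaperone counted with the cap, went the other way, at 31.7, 21.9, 30.2 and 25.7 CPM (-0.53 and -0.23), both CORT libraries lying below both vehicle libraries.

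Other liver subunits moved in a single genotype. The deubiquitinase Psmd14 read 30.8, 42.1, 33.2 and 32.2 CPM, with only the GRfl/fl CORT library high (0.44, 0.30 to 0.60, against -0.04, -0.20 to 0.11). Psmd4 read 41.0, 40.8, 33.4 and 48.0 CPM, level in GRfl/fl (-0.01, -0.15 to 0.13) and higher with CORT in GR-mKO (0.52, 0.38 to 0.66), unlike in gastrocnemius. Psmd3, a lid subunit, read 95.7, 90.2, 81.6 and 98.1 CPM. Of the core, Psma5 read 40.6, 31.3, 34.7 and 33.2 CPM, lower with CORT in GRfl/fl (-0.37), and the 3 catalytic genes changed by -0.07 to 0.26: Psmb5 read 63.1, 65.6, 61.6 and 73.7 CPM, Psmb6 75.8, 72.0, 84.9 and 83.3 CPM, and Psmb7 81.8, 87.7, 82.9 and 90.8 CPM. The sign of the change was shared by the genotypes for 30 of 36 genes (83.3%, against 62.9% of all features), and the Pearson correlation across the 36 genes was 0.63, against 0.55 across all features. Hepatocyte markers (6 genes) summed to 80332 CPM in GRfl/fl vehicle, 120158 in GRfl/fl CORT, 104297 in GR-mKO vehicle and 154184 in GR-mKO CORT, and leukocyte markers to 100.02, 24.98, 73.5 and 39.9 CPM. Both moved with CORT, and their part in the cap result was not tested.

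Muscle-fiber deletion of the receptor went with little difference in liver. Under vehicle the median over the 36 genes was -0.02, beside 0.03 over all features, with 0 genes 25% higher (15.8% of all features) and 1 lower, Psma8 (12.5% of all features). That gene, at 1.254 and 0.629 CPM, was also the 1 past 1.5-fold (9.92% of all features), and NOISeq called 0 (0.569% of all features). Under CORT the median was 0.04 (-0.04 with TMM factors), beside 0.07 over all features, with Psma3 the 1 gene higher (23.7% of all features) and Psma8, Psmd13 and Psmd14 the 3 lower (15.6% of all features). No gene, 0 of 36, passed 1.5-fold (16.5% of all features) and NOISeq called 0 (1.43% of all features). With TMM factors the last split was 0 higher and 4 lower. Psma3 read 48.0, 40.6, 50.4 and 52.9 CPM and Psmb3 67.4, 61.0, 68.4 and 74.4 CPM in GRfl/fl vehicle, GRfl/fl CORT, GR-mKO vehicle and GR-mKO CORT, and both were lowest in GRfl/fl CORT. The median of the core lay above that of the cap, by 0.10 under vehicle (0.04 against -0.06) and by 0.15 under CORT (0.14 against -0.01). In each, 13 of 16 core genes were above the median of the cap.

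In gonadal WAT, CORT separated core from cap in GRfl/fl mice and much less in GR-mKO mice. In GRfl/fl WAT 14 of 16 core genes were below (7824 of all 14218 features tested) and 16 of 20 cap genes above their vehicle level (6394 features). The medians were -0.26 for the core, 0.10 for the cap, -0.01 for all 36 genes (0.07 with TMM factors) and -0.07 for all features. At least 25% higher were 3 genes, all of the cap (24.5% of all features), and lower 5, all of the core (32.9% of all features). With TMM factors the split was 4 higher and 2 lower. Past 1.5-fold was Psmd13 alone, 1 gene (32.6% of all features), and NOISeq called 0 (7.56% of all features). The difference of the core and cap medians was -0.36, and 15 of 16 core genes were below the median of the cap. In GR-mKO WAT that difference was -0.06, with medians of -0.02 for the core (0.10 with TMM factors), 0.04 for the cap, 0.03 for all 36 genes and -0.12 for all features. Higher were 2 genes, Psmb5 and Psmd13 (16.7% of all features), and lower 2, Psma3 and Psma8 (32.0% of all features), with 0 past 1.5-fold (25.1% of all features) and 0 called by NOISeq (4.41% of all features). TMM factors moved the median of all features there from -0.12 to 0.00, and the split became 8 higher and 1 lower.

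The catalytic Psmb6 and the outer-ring Psma7 were lowest. Psmb6 read 108 CPM (103 to 113) in GRfl/fl vehicle, 77.4 (73.6 to 81.3) in GRfl/fl CORT, 100.1 (95.8 to 105) in GR-mKO vehicle and 92.5 (88.4 to 96.8) in GR-mKO CORT WAT, changes of -0.48 (-0.58 to -0.39) and -0.11 (-0.21 to -0.02). Psma7 read 84.8, 62.1, 83.6 and 79.1 CPM, changes of -0.45 and -0.08. For both genes the GRfl/fl CORT library alone was low. Psma3 differed from them, at 68.2, 54.0, 68.9 and 52.8 CPM, lower with CORT in both genotypes (-0.33 and -0.38). The other catalytic genes changed less with CORT in GRfl/fl: Psmb5 read 78.7, 79.4, 65.3 and 85.4 CPM (0.01 and 0.39) and Psmb7 110.1, 104, 99.6 and 116 CPM (-0.08 and 0.21).

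Among the cap genes of gonadal WAT the lid subunit Psmd13 was highest, at 23.0 CPM (20.99 to 25.2) in GRfl/fl vehicle, 35.7 (33.1 to 38.4) in GRfl/fl CORT, 28.4 (26.1 to 30.9) in GR-mKO vehicle and 35.9 (33.4 to 38.6) in GR-mKO CORT. The deubiquitinase Psmd14 read 63.1, 83.1, 64.97 and 80.4 CPM, changes of 0.39 and 0.30, and the chaperone Psmd10 9.08, 11.8, 9.98 and 10.8 CPM. The CORT libraries of these 3 genes were above their vehicle libraries in both genotypes. The sign was shared by the genotypes for 30 of 36 genes (83.3%, against 72.5% of all features), in the cap for 19 of 20 and in the core for 11 of 16. The Pearson correlation across the 36 genes was 0.64, against 0.65 across all features. The median difference of the changes, GRfl/fl minus GR-mKO, was -0.22 for the core and 0.02 for the cap, beside 0.05 over all features. In these libraries leukocyte markers summed to 627.5 CPM in GRfl/fl vehicle, 1573 in GRfl/fl CORT, 834 in GR-mKO vehicle and 1567 in GR-mKO CORT. Endothelial markers (3 genes) summed to 514, 199, 482 and 270.1 CPM, and adipocyte markers (5 genes) to 24308, 19812, 25950 and 19193 CPM. These sums moved with CORT in both genotypes, and their part in the core result was not tested.

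Between genotypes, gonadal WAT showed small differences that turned with treatment. Under vehicle 0 of 36 genes were 25% higher (13.8% of all features) and 0 lower (12.5% of all features), 0 passed 1.5-fold (9.67% of all features) and NOISeq called 0 (0.802% of all features). Below their GRfl/fl level were 14 of 16 core genes (6452 of 14218 features), with medians of -0.10 for the core and 0.01 for the cap. Under CORT the core median was 0.15 and the cap median -0.01 (0.02 with TMM factors), with 12 of 16 core genes above their GRfl/fl level (6469 of 14218 features). Higher by 25% was 1 gene, Psma7 (13.6% of all features), and lower 1, Psma8 near the floor (17.6% of all features), which was also the 1 past 1.5-fold (10.6% of all features), and NOISeq called 0 (0.689% of all features).

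**Figure D4:**
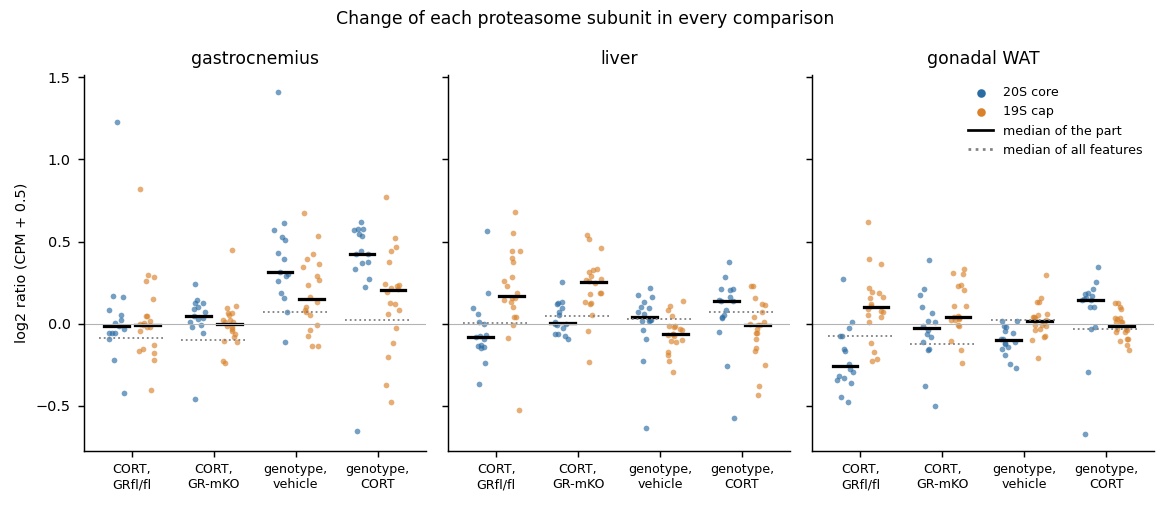
Log2 ratio of every proteasome gene in the 4 comparisons of each tissue, 20S core and 19S cap in different colors, with a black bar at the median of core or cap and a dotted line at the median of all features tested. The core lies above the cap for GR-mKO over GRfl/fl in gastrocnemius (0.31 against 0.15 and 0.43 against 0.20) and below it for CORT over vehicle in liver and in GRfl/fl gonadal WAT (-0.26 against 0.10).

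The summed levels showed the same patterns per library. In gastrocnemius the core summed to 912 CPM in GRfl/fl vehicle, 904.5 in GRfl/fl CORT, 1173 in GR-mKO vehicle and 1225 in GR-mKO CORT, and the cap to 1883, 2014, 2031 and 2025 CPM. The ratio of core to cap was 0.484 and 0.449 in the GRfl/fl libraries and 0.577 and 0.605 in the GR-mKO libraries, so that the genotypes did not overlap. In liver the core summed to 940.1, 909, 979.5 and 998 CPM and the cap to 1181, 1355, 1129 and 1339 CPM, and the ratio was 0.796 and 0.868 with vehicle and 0.671 and 0.746 with CORT, so that the treatments did not overlap. In gonadal WAT the core summed to 1379, 1165, 1299 and 1289 CPM and the cap to 1779, 1911, 1789 and 1893 CPM. The ratio there was 0.775, 0.610, 0.726 and 0.681, lower with CORT in both genotypes and lowest in GRfl/fl CORT. A ratio within a library does not depend on how libraries are scaled. With 1 library per combination of tissue, genotype and treatment, a separation of genotypes or treatments carries no measure of error.

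**Figure D5:**
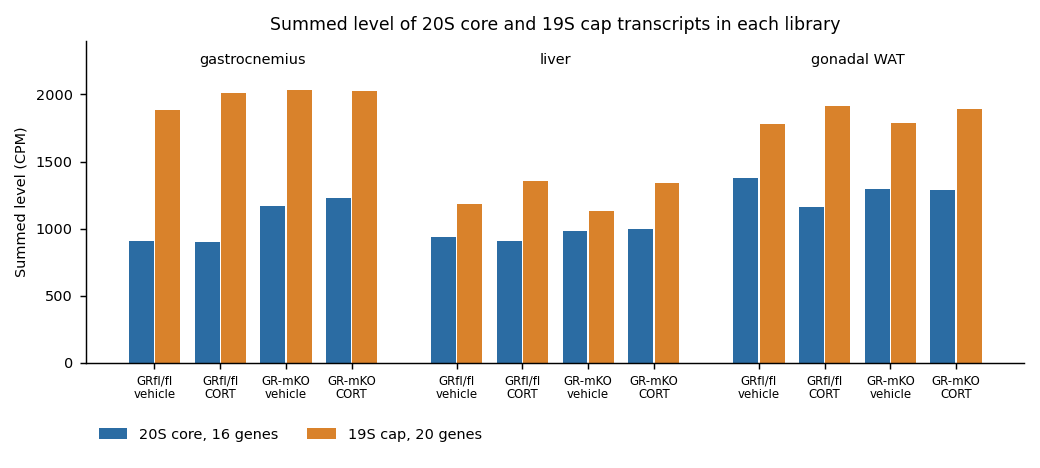
Summed CPM of the 16 genes of the 20S core and the 20 genes of the 19S cap in each of the 12 libraries, as bars from 0, grouped by tissue, genotype and treatment. The gastrocnemius core bars are higher in GR-mKO (1173 and 1225 CPM) than in GRfl/fl (912 and 904.5 CPM), and the liver cap bars are higher with CORT (1355 and 1339 CPM) than with vehicle (1181 and 1129 CPM).

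Other genes of the pathway were taken from lists by function. In gastrocnemius the assembly factors, of which 5 of 6 could be compared, were higher in GR-mKO: 4 of 5 by at least 25% under vehicle (median 0.51, 29.1% of all features) and 5 of 5 under CORT (median 0.56, 28.0% of all features). Psmg2, a chaperone of the outer ring, read 15.9 CPM in GRfl/fl vehicle, 11.05 in GRfl/fl CORT, 23.9 in GR-mKO vehicle and 19 in GR-mKO CORT. Pomp, the factor that matures the barrel, read 40.0, 33.0, 49.7 and 45.5 CPM. In both the GR-mKO libraries were above the GRfl/fl libraries. Among 6 other subunits and partners of the particle 1 was higher (29.1% of all features) and 2 were lower (19.6%) in GR-mKO under vehicle, and 1 was higher under CORT (28.0%). The higher gene was in both cases Sem1, a small lid subunit, at 29.8, 37.3, 57.8 and 63.6 CPM. Of 5 activators and their inhibitor 2 were higher under both treatments (14.1% of all features), the interferon-induced Psme1 (27.9, 14.4, 44.0 and 31.3 CPM) and Psme2 (11.5, 7.46, 20.4 and 17.0 CPM). Psme4, which caps the core without ATP, was lower under vehicle (19.6% of all features), at 280.3, 242, 167 and 195 CPM.

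Upstream regulators were higher with CORT in GRfl/fl gastrocnemius, where the subunits as a group were not. Of the 4 regulators of subunit transcription 3 were at least 25% higher with CORT in GRfl/fl (median 0.73, 17.8% of all features) and 1 in GR-mKO (median 0.20, 10.1% of all features). Nfe2l1 read 130.4 CPM (126 to 136) in GRfl/fl vehicle, 321 (313 to 329) in GRfl/fl CORT, 213 (207 to 219.9) in GR-mKO vehicle and 305 (297 to 312) in GR-mKO CORT, changes of 1.30 and 0.51. Ddi2, the protease that activates the Nfe2l1 protein, read 84.2, 130.2, 52.6 and 61.1 CPM, and Nfe2l2 72.9, 131, 88.4 and 81.4 CPM. Of the 4 atrophy ligases 2 were higher with CORT in GRfl/fl, Fbxo32 at 287, 913, 316 and 359 CPM and Trim63 at 244, 425, 163 and 211 CPM (17.8% of all features), and 1 lower, Fbxo21 at 15.7, 6.20, 16.5 and 7.68 CPM (28.7% of all features). The counts in GR-mKO were the same, 2 higher (10.1% of all features) and 1 lower (27.9%), but Fbxo32 was not among the higher ones. The median change of the 4 ligases was 0.35 in GRfl/fl and 0.28 in GR-mKO.

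The immunoproteasome genes, which replace catalytic subunits under interferon, were lower with CORT in 3 of 3 cases in every tissue and genotype, each past the fold. The shares of all features past it were 28.7% in GRfl/fl and 27.9% in GR-mKO gastrocnemius. They were 24.6% and 17.1% in liver, and 32.9% and 32.0% in gonadal WAT. The median log2 change in GRfl/fl and GR-mKO was -1.50 and -0.87 in gastrocnemius, -1.003 and -0.58 in liver and -2.29 and -1.67 in gonadal WAT. In WAT, Psmb8 read 20.8 CPM in GRfl/fl vehicle, 3.49 in GRfl/fl CORT, 16.9 in GR-mKO vehicle and 4.20 in GR-mKO CORT, and its constitutive counterpart Psmb5 read 65.3 to 85.4 CPM, as given above. B cell markers (4 genes) summed to 10.5, 1.46, 15.9 and 3.81 CPM in these WAT libraries, and their part was not tested. Of the 8 genes for shuttles and the p97 unfoldase, 2 in GRfl/fl liver (25.4% of all features) and 4 in GR-mKO liver (22.4% of all features) were at least 25% higher with CORT and none was lower, and 4 were higher in GRfl/fl WAT (24.5% of all features). The shuttle factor Ubqln1 read 84.6, 126, 79.5 and 114 CPM in liver. Of the 4 regulators of subunit transcription, 2 were higher with CORT in GRfl/fl liver (25.4% of all features) and 1 in GR-mKO liver (22.4%), with none lower (24.6% and 17.1%). In gonadal WAT 2 were higher (24.5% of all features) and 1 lower (32.9%) in GRfl/fl, and 0 higher (16.7%) and 1 lower (32.0%) in GR-mKO. Nfe2l2 read 41.6, 118, 51.2 and 98.1 CPM in liver, and Nfe2l1 182, 419, 244 and 265 CPM in gonadal WAT.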

How the data were processed

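RNA was measured in 12 pooled libraries, 1 per tissue, genotype and treatment. Per the study's methods, the authors estimated abundance from 100-base paired reads with Salmon 1.2.1 and the protein-coding GENCODE M20 transcripts (mm10), imported the estimates with tximport on its length-scaled scale, and kept the entry with the largest total where a symbol was duplicated. The deposited values are therefore expected counts, with no scaling between libraries, and each entry bears 1 transcript identifier. Whether values had been summed per gene beforehand was not settled. The same transcript stood for each of the 36 genes in all 3 tissues. According to GENCODE M21, 23 of the 36 have several protein-coding transcripts and 13 have 1.

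CPM was the expected count over the library total, and log2 ratios were taken after adding 0.5 CPM to both sides. Ratio intervals leave this addition out and use counts rounded to whole numbers. The features tested had a value above 0 in each of the 4 libraries of their tissue (13543 for gastrocnemius, 12485 for liver, 14218 for gonadal WAT). The call without replicates followed the settings of the study (depth 20%, 5 simulated samples, variability 0.02, probability 0.9) and was run with own code (Python 3.11.15, numba 0.67.0, numpy 2.4.6, scipy 1.17.1, pandas 2.3.3). It was tested on simulated data. Alternative scaling factors came from edgeR 4.0.16 (TMM) and DESeq2 1.42.0 (median of ratios) in R 4.3.3. Figures were drawn with matplotlib 3.10.9.

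The genes and the pathway lists were chosen with earlier results of these data known, so their counts are descriptions and support nothing independently. Genes given with values in every library were the 3 catalytic subunits and, per tissue, the 4 largest and 2 smallest changes with CORT in GRfl/fl, the 2 largest and 2 smallest differences of that change between genotypes, and the 2 highest and 2 lowest in GR-mKO under CORT. Psma1, Psma4, Psma5, Psmb2, Psmc6 and Psmd1 in gastrocnemius, Psmc2 in liver and Psma3 in gonadal WAT, and the pathway genes given with values, were named after their values had been seen. Levels of different genes were compared per kilobase of the retained transcript, and levels of different tissues gene by gene. No comparison had a replicate, so no differential test was run. Columns were matched to groups by the labels. A gene of the pathway lists is not reported here.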

Additional observations from a re-analysis of the deposited data

Results flagged for a closer look

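With 1 library per group no sample could be held against others of its group. A change with CORT in opposite directions in the 2 genotypes, with both counting intervals clear of 0, was seen for 5 proteasome genes, and none of these differences was tested. In gastrocnemius the change in GRfl/fl minus that in GR-mKO was 1.05 on the log2 scale for Psmd4, 0.34 for Psmd8 (0.26 against -0.08), -0.37 for Psma6 (-0.22 against 0.15, with 95.2, 81.5, 100.2 and 111 CPM in GRfl/fl vehicle, GRfl/fl CORT, GR-mKO vehicle and GR-mKO CORT) and -0.67 for Psmd13. In liver it was -0.26 for Psmb3 (-0.14 against 0.12).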

How the results depend on the processing

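With 1 library per group no library could be left out, and no paired analysis was possible because every group has 1 library. The median change of the proteasome genes with CORT in gastrocnemius was -0.01 in GRfl/fl and became 0.10 with median-of-ratios factors, and in GR-mKO it was 0.02 and became 0.18 with TMM and 0.16 with median-of-ratios factors. In GR-mKO gonadal WAT it was 0.03 and became 0.15 and 0.16. The number of genes at least 25% higher or 20% lower with CORT in GR-mKO was 2 in gastrocnemius and 1 after adding 1 CPM in place of 0.5, 5 in liver and 3 with either set of factors, and 4 in gonadal WAT and 9 with either set. The difference of the core and cap medians kept its direction in all 60 alternatives (12 comparisons with 5 settings). For the TMM and median-of-ratios settings this was fixed in advance, because scaling moves core and cap alike. The number of NOISeq calls with TMM factors was the same in 12 of 12 comparisons. Counting error limits Psma8 and Psmb11, which stood near the floor. Leaving them out, chosen after the values had been seen, raised the gastrocnemius median between genotypes from 0.27 to 0.28 under vehicle and to 0.30 under CORT. Among features with a mean of at least 20 CPM, also chosen afterwards, 13 of 36 shares of all features moved by over 1.5 times, such as the share at least 20% lower with CORT in GR-mKO gastrocnemius, from 27.9% to 13.7%. The spread between mice was not measured and limits every value here.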
